A study of Rattus norvegicus with 10 samples.

Results

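The inhibitory transmission genes described here number 34 of the 14217 genes that had a probe set with a single symbol on the array. They comprise subunits of the GABA-A, GABA-B and glycine receptors, the proteins that anchor and carry these receptors, the enzymes and transporters of GABA and glycine, and the cation-chloride cotransporters. Members were taken by gene symbol, each through its probe set with the highest mean signal over the 10 arrays, and other probe sets of a member are given where they differ from it. Messenger RNA was measured in the hypothalamic paraventricular nucleus of male Sprague Dawley rats aged 10 to 12 weeks. In the dehydrated group the rats had been dehydrated for 3 days, and the comparison group was labelled control, with no further detail of the water supply in the sources used here. Each group held 5 pools, each pool held tissue of 5 animals, and each pool was run on 1 Affymetrix Rat Genome 230 2.0 array, for 50 animals in all. A design note in the deposit mentions the supraoptic nucleus, against the paraventricular nucleus of the title and of all sample labels, and the sample labels were used.

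GABA is the main inhibitory transmitter of the hypothalamus, and a large share of the synapses on vasopressin and oxytocin neurons use it. It is made from glutamate by the glutamic acid decarboxylases, loaded into vesicles by the vesicular transporter Slc32a1 and broken down by the transaminase Abat. GABA-A and glycine receptors are pentameric chloride channels, whereas the GABA-B receptor is a G protein coupled dimer. Whether an open chloride channel inhibits or excites a neuron depends on its internal chloride, which Slc12a2 (NKCC1) raises and Slc12a5 (KCC2) lowers. The paraventricular neurons that make peptides are mainly glutamatergic, and much of their GABA input comes from cells close to the nucleus, so that a dissected nucleus can hold RNA of both.

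Signals were linear values scaled by the authors to a common level on each array, without detection calls, and were compared as log2(signal + 3.72) with limma. Of the 34 members, 22 had a mean signal of at least 24.1 over all arrays and were tested with 18629 probe sets in all. The labelled tissue matched its markers in part, with Avp at 2853 to 4334 in control and 3931 to 5698 in dehydrated pools (log2 difference 0.50 ± 0.11, adjusted p = 0.0504). Oxt (log2 difference 0.24 ± 0.08), Crh (0.19 ± 0.20), Trh (0.08 ± 0.07) and the lineage factor gene Sim1 (0.35 ± 0.17) were measured in both groups without passing, at adjusted p from 0.218 to 0.726. The lineage genes Otp and Pou3f2 lay under the limit of 24.1. Control replicate 5 stood apart from the other 9 arrays on the first principal component, at 37.2 against -14.4 to 3.69, and held the highest or the lowest of the 10 values in 10 of the 22 tested members, against 1 to 8 for each other array. For those 10 members the difference without it is given as well. In a pool of tissue, fewer cells of a type and less RNA per cell cannot be told apart.

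None of the 22 tested members passed the threshold of 0.05 after Benjamini-Hochberg adjustment in limma (0 higher, 0 lower), where 0.58% of all probe sets tested did, 0.397% higher and 0.183% lower. At an unadjusted p under 0.05 there were 4 members, 1 higher and 3 lower, where 12.7% of all probe sets stood, 6.7% higher and 6.01% lower. These were the GABA-A subunit gene Gabra2, higher in dehydrated pools, and the GABA-B subunit gene Gabbr1, the vesicular transporter gene Slc32a1 and the decarboxylase gene Gad1, each lower. The log2 differences of the 22 ran from -0.25 for Gabre to 0.52 for Gabra2, with a median of -0.04, 9 positive and 13 negative, beside a median of 0.00 over all probe sets. The median size of the difference was 0.11 in these members and 0.10 over all probe sets, with a median standard error of 0.08 and 0.12. Values followed by ± are a mean and SD over 5 pools for signals, and an estimate and its standard error for log2 differences.

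**Figure D1:**
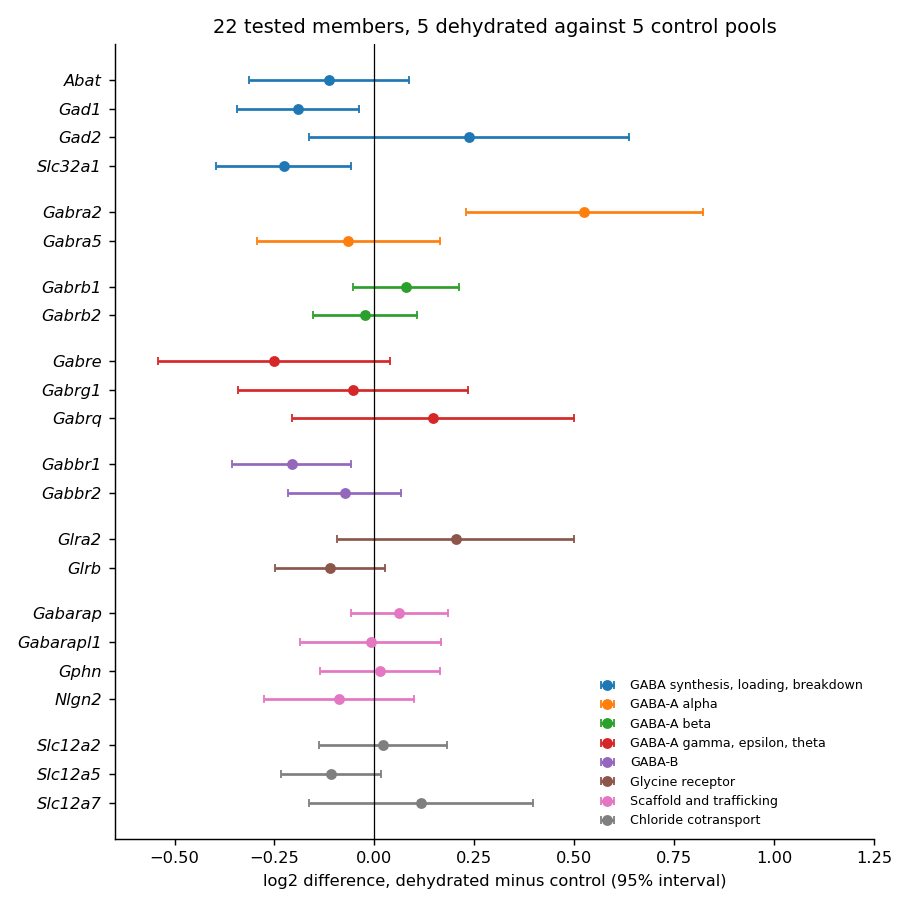
Log2 difference, dehydrated minus control, of the 22 tested members by role, with points for the estimate and bars for its 95% interval from limma (5 pools per group). The intervals of Gabra2 (0.23 to 0.82), Gad1, Slc32a1 and Gabbr1 exclude 0 before adjustment, and no member passed after adjustment over all probe sets.

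Among the genes that mark GABA neurons, Gad1 and Slc32a1 had lower means and Gad2 a higher mean in dehydrated pools, and none passed. Gad1, which encodes the decarboxylase GAD67 that makes most of the brain's GABA, had signals of 1992, 2060, 1523, 1890 and 1854 in dehydrated replicates 1 to 5 and 2089, 2323, 2082, 2117 and 1983 in control replicates 1 to 5. The groups overlapped, with the lowest value in dehydrated replicate 3. The means were 1864 ± 207 and 2119 ± 125, a log2 difference of -0.19 ± 0.07 (limma, unadjusted p = 0.0175, adjusted p = 0.280). It was -0.12 without dehydrated replicate 3 and -0.21 without control replicate 5. Slc32a1, which fills synaptic vesicles with GABA and glycine, had 489, 487, 415, 434 and 523 in dehydrated and 565, 521, 534, 494 and 640 in control pools. Here dehydrated replicate 5 lay above 2 control pools, and control replicate 5 was the highest of all. The log2 difference was -0.23 ± 0.08 (limma, unadjusted p = 0.0113, adjusted p = 0.241), and -0.17 without control replicate 5 (adjusted p = 0.286).

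Gad2, which encodes the decarboxylase GAD65 of nerve terminals, had the higher mean in dehydrated pools. Its signals were 53.9, 67.4, 61.4, 82.0 and 72.6 in dehydrated and 64.4, 71.0, 60.7, 66.8 and 29.5 in control pools. Apart from the low control replicate 5, the control values lay inside the dehydrated range. The log2 difference of 0.24 ± 0.19 (limma, adjusted p = 0.631) was 0.02 without that array. Abat, the GABA transaminase, had 127 ± 12.3 in dehydrated and 137 ± 15.0 in control pools (log2 -0.11 ± 0.09, limma adjusted p = 0.649). A dimmer probe set of Abat (1391365_at) gave -0.68 ± 0.30 and another (1375321_at) 0.11 ± 0.23 (limma adjusted p = 0.361 and 0.880). The plasma membrane transporter genes among the members, Slc6a5 for glycine and Slc6a13 for GABA, lay under the limit, with highest signals of 3.6 and 8.6 on any array. Outside the members, the glycine transporter gene Slc6a9 was above the limit and differed by 0.03 ± 0.12 (limma adjusted p = 0.947). The GABA transporter gene Slc6a11 lay under the limit.

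**Figure D2:**
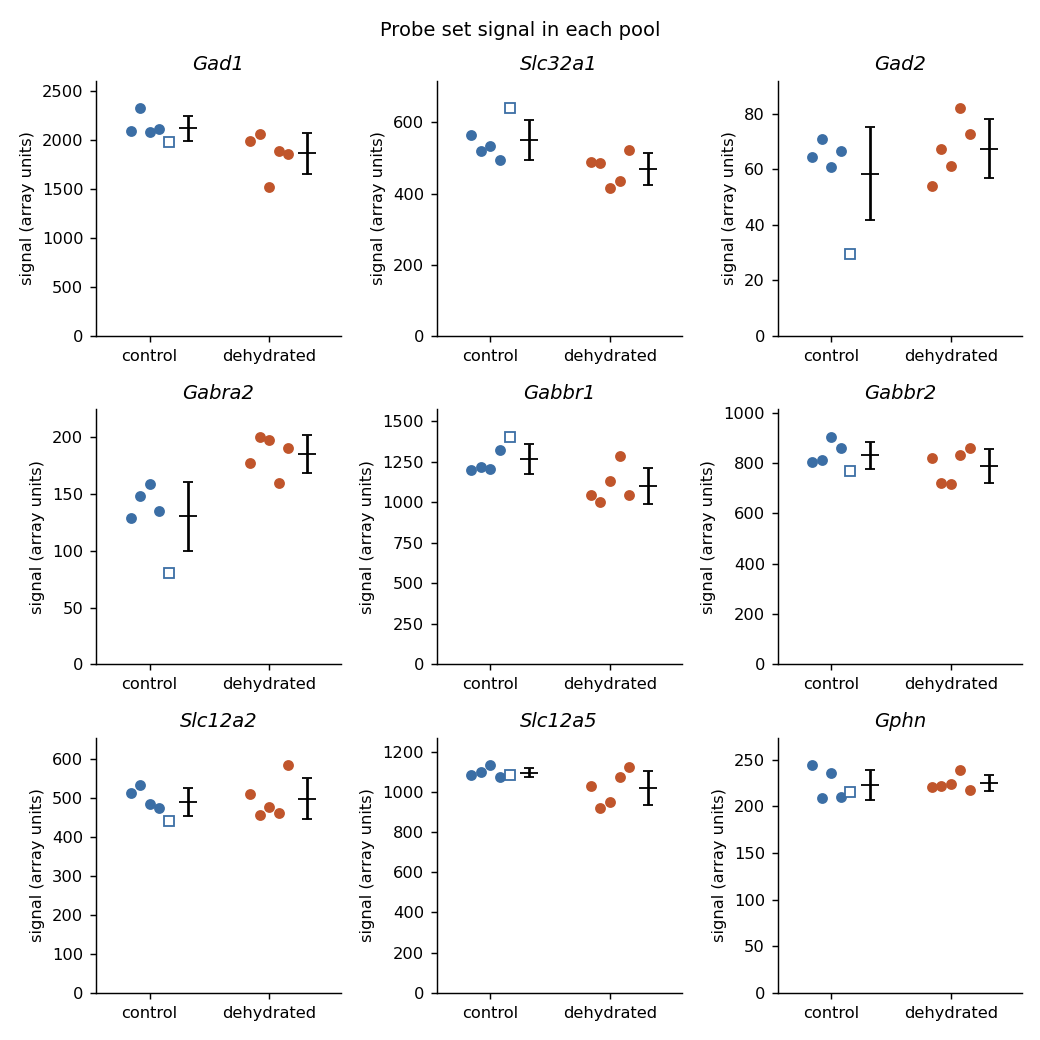
Probe set signal in array units of 9 members in each pool (circles; the open square is control replicate 5), with the mean and SD over 5 pools at the right of each group. Gabra2 is the gene of the 9 whose groups do not meet, at 159.9 or more in dehydrated and 158.6 or less in control pools.

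The promoter windows of Gad1 and Slc32a1 are shown because these genes define the GABA phenotype and had lower means in the same direction, although neither passed. Each window runs from 250 bases before to 50 bases after the gene's start in RefSeq, on the plus strand of build GRCr8. That of Gad1 is chr3:75777202-75777501 and that of Slc32a1 chr3:167686995-167687294. Capitals mark matches, on either strand, to the spelled-out motifs TATAAA (the core promoter box of that name), GGGCGG (the site of Sp factors), TGACGTCA (the full cAMP response element) and TGACG (the short form of that element, which the full one contains).
Gad1: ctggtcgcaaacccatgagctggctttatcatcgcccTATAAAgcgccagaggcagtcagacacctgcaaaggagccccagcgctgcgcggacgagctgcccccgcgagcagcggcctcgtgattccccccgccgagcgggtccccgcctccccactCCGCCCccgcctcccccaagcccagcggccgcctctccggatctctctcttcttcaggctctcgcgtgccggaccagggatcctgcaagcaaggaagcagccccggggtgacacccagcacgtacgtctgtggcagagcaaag
Slc32a1: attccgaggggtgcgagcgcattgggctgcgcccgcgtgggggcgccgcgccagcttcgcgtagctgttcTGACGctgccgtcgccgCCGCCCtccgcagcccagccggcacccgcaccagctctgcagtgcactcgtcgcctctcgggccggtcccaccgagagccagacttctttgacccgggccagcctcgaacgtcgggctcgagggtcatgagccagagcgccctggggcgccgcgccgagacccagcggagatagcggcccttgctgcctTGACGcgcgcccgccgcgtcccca
The Gad1 window held 1 TATAAA, which 14.2% of all 33469 promoter windows of this length hold, and 1 GGGCGG, which 33.1% hold. Its TATAAA lay near the upstream end of the window, far from the gene's start, and was marked by its letters alone. The Slc32a1 window held 1 GGGCGG and 2 matches to TGACG, which 21.2% hold. Neither held TGACGTCA, found in 1.83% of all windows. The G and C content was 67.7% for Gad1 and 73.7% for Slc32a1, beside a median of 51.7%. A window was listed for 29 of the 34 members, of which 20 held GGGCGG, 5 TATAAA, 4 TGACG and 0 TGACGTCA. A match is a description of the letters and shows no binding.

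The signals of GABA neuron genes were set within each array against that of Slc17a6, the vesicular glutamate transporter of most hypothalamic glutamate neurons. Whether the result differs between GABA neuron genes was not tested. Slc17a6 itself had 951 ± 115 in dehydrated and 808 ± 136 in control pools (log2 0.24 ± 0.11, limma, unadjusted p = 0.0385, adjusted p = 0.367). The Gad2 minus Slc17a6 value ran from -4.05 to -3.42 in dehydrated and from -4.21 to -3.39 in control pools. The groups covered each other, and their means differed by -0.01 (exact two-sided permutation p = 0.992 over 252 assignments, n = 5 each, smallest possible p 0.0079), and by -0.12 without control replicate 5. Gad1 and Slc32a1, which are brighter than Gad2, were added after their values had been seen. Both had lower means in dehydrated pools, and Slc17a6 a higher one, each at an unadjusted p under 0.05 in limma. That choice favoured small permutation p-values for both, and no conclusion is drawn from them. Gad1 minus Slc17a6 ran from 0.63 to 1.44 in dehydrated and from 1.09 to 1.69 in control pools, and the means differed by -0.43 (exact permutation p = 0.0476, n = 5 each), or -0.36 without control replicate 5. Slc32a1 minus Slc17a6 ran from -1.28 to -0.64 and from -1.002 to 0.06, and the means differed by -0.47 (exact permutation p = 0.0556, n = 5 each), or -0.32 without control replicate 5. The groups overlapped in both, and after Benjamini-Hochberg adjustment over the 4 within-array differences computed both exact permutation p-values were 0.0952.

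Among the GABA-A receptor genes, Gabra2 had the largest difference of all 22 members. It encodes the alpha2 subunit, a part of the benzodiazepine binding interface in synaptic receptors. Its signals were 177, 200.1, 198, 159.9 and 190.0 in dehydrated and 128, 148, 158.6, 135 and 80.6 in control pools. Every dehydrated pool lay above every control pool, the nearest being dehydrated replicate 4 and control replicate 3. It was the only tested member of which that was true, and the groups were apart for 3.36% of all probe sets, 1.94% higher and 1.42% lower. The means were 185 ± 16.7 and 130.2 ± 30.1, a log2 difference of 0.52 ± 0.14 and a fold of 1.44 (limma, unadjusted p = 0.00171, adjusted p = 0.108). Without control replicate 5, the lowest control value, the difference was 0.37 (adjusted p = 0.0670), the smallest adjusted p of any member under any alternative. Gabra2 had 1 probe set on the array, so no other one could be compared with it.

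The other tested alpha subunit, Gabra5, which is typical of receptors outside synapses, had 222 ± 32.2 in dehydrated and 232 ± 35.3 in control pools (log2 -0.06 ± 0.11, limma adjusted p = 0.844). Gabra3, Gabra4 and Gabra6 lay under the limit, with highest signals of 3.4, 17.1 and 23.5. The beta subunits, which carry the binding site for GABA together with alpha, were measured with the narrowest errors among the GABA-A genes. Gabrb1 had 816 ± 38.5 in dehydrated and 773 ± 58.9 in control pools, and Gabrb2 597 ± 27.1 and 608 ± 40.5. Their log2 differences were 0.08 (95% interval -0.05 to 0.21) and -0.02 (-0.15 to 0.11). Control replicate 5 was the lowest array for both genes, and without it the log2 differences were 0.03 and -0.07 (limma adjusted p = 0.821 and 0.594).

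The genes of rarer subunits were dimmer. Gabre, the epsilon subunit gene that is enriched in hypothalamus, had 54.8 ± 7.67 in dehydrated and 66.2 ± 11.3 in control pools (log2 -0.25 ± 0.14, limma adjusted p = 0.458). Its second probe set lay under the limit and differed by 0.81 ± 0.41 in the fit without a filter (limma adjusted p = 0.511). The theta subunit gene Gabrq lay just above the limit, with a mean of 25.2, and differed by 0.15 ± 0.17, and Gabrg1 differed by -0.05 ± 0.14. Just below the limit were Gabrg3 and Gabrd, each with a mean of 21.9. Gabrp, Gabrr1 and Gabrr2, of the pi and rho subunits, had highest signals of 6.1, 17.5 and 16.6.

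Gabrd encodes the delta subunit of extrasynaptic receptors that carry tonic inhibition, and its probe sets disagreed. The probe set with the highest mean (1369048_at) had 30.9, 13.6, 21.2, 14.7 and 21.2 in dehydrated and 35.8, 26.9, 18.1, 23.4 and 13.1 in control pools, with the groups mixed. A second one (1395269_s_at) had 21.8, 16.0, 6.9, 8.1 and 6.3 in dehydrated and 38.7, 28.0, 19.0, 30.5 and 38.7 in control pools. There, dehydrated replicate 1 lay above control replicate 3, and the other dehydrated pools lay below all control pools. In the fit without a filter the log2 differences were -0.16 ± 0.26 and -1.23 ± 0.29, the second with an unadjusted p of 7.7e-04 and an adjusted p of 0.121 in limma. The third probe set (1395270_x_at), of the same sequence record as the second, was at 3.9 or less on every array. All 3 lay under the limit of 24.1, and the second was singled out after its values were seen.

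**Figure D3:**
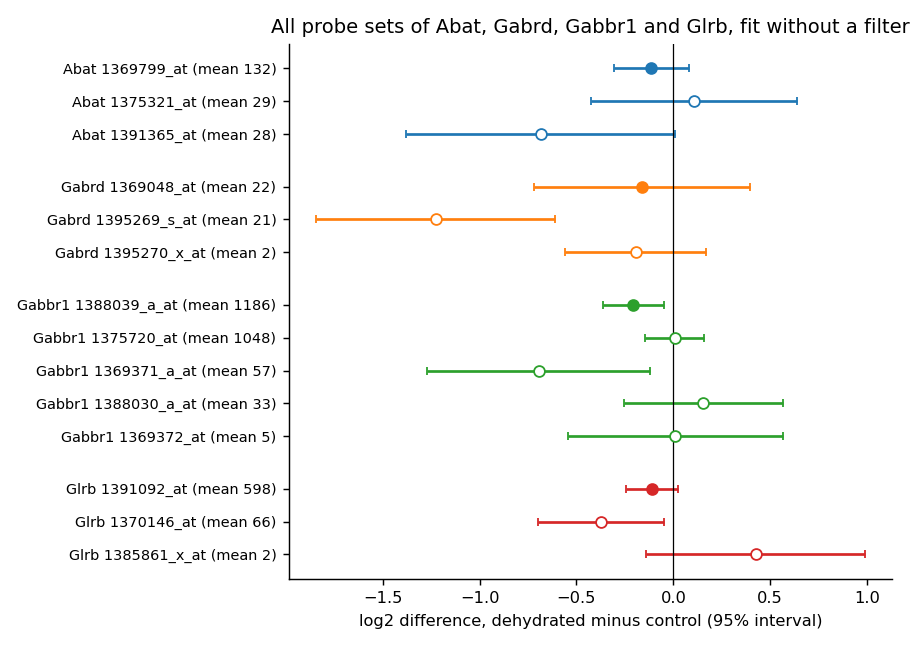
Log2 difference, dehydrated minus control, with 95% interval for every probe set of Abat, Gabrd, Gabbr1 and Glrb, in the limma fit without a filter; filled points are the probe sets with the highest mean signal, and the mean signal is given beside each name. Within each gene the probe sets range over both signs or, for Gabrd, from -1.23 to -0.16.

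Several GABA-A subunit genes lie side by side in the genome, and their values can be set side by side. In the RefSeq gene table Gabra2 stands next to Gabrg1, and Gabra4 and Gabrb1 follow on its other side with 1 coding gene between Gabra2 and Gabra4. Of these neighbours, Gabrg1 differed by -0.05 and Gabrb1 by 0.08 beside 0.52 for Gabra2, and Gabra4 lay under the limit. Gabra6 and Gabrb2 are adjacent, as are Gabra5 and Gabrg3 and the rho genes Gabrr1 and Gabrr2, and in none of these pairs were both genes above the limit. Gabre, Gabra3 and Gabrq follow each other with 1 coding gene between neighbours, and Gabre differed by -0.25 and Gabrq by 0.15, with Gabra3 under the limit.

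The GABA-B receptor is a dimer of Gabbr1, which binds GABA, and Gabbr2, which couples to the G protein. Gabbr1 had signals of 1045, 1001, 1133, 1283 and 1047 in dehydrated and 1198, 1217, 1204, 1324 and 1405 in control pools. Dehydrated replicate 4 lay above 3 control pools, and the other dehydrated pools lay below all of them. The means were 1102 ± 112 and 1270 ± 91.4, a log2 difference of -0.21 ± 0.07 (limma, unadjusted p = 0.00940, adjusted p = 0.229), and -0.17 without control replicate 5. This held for 1 of the brighter probe sets of the gene (1388039_a_at). The other bright one (1375720_at) had 1050 ± 68.3 in dehydrated and 1046 ± 104 in control pools, a log2 difference of 0.01 ± 0.07 (limma adjusted p = 0.973). Of the dimmer ones, 1369371_a_at gave -0.70 ± 0.25 and 1388030_a_at 0.15 ± 0.18 (limma adjusted p = 0.257 and 0.765). Gabbr2 had 820, 719, 715, 832 and 861 in dehydrated and 803, 814, 904, 861 and 770 in control pools, with the groups mixed (log2 -0.07 ± 0.07, limma adjusted p = 0.678).

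Glycine receptors were represented by Glra2, the alpha subunit gene of the immature receptor, and Glrb, the beta subunit gene that ties the receptor to gephyrin. Glra2 had 234 ± 34.2 in dehydrated and 206 ± 49.3 in control pools (log2 0.20 ± 0.14, limma adjusted p = 0.572), and 0.08 without control replicate 5, its lowest array. Glrb had 576 ± 39.3 and 621 ± 41.3 (log2 -0.11 ± 0.07, limma adjusted p = 0.496), and its second probe set (1370146_at) 57.5 ± 12.6 and 74.9 ± 12.4 (log2 -0.37 ± 0.15, limma, unadjusted p = 0.0223, adjusted p = 0.306). Glra1 and Glra3 lay under the limit, Glra3 at 9.4 to 23.2 in dehydrated and 5.5 to 12.8 in control pools.

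The postsynaptic scaffold and trafficking genes had log2 differences from -0.09 to 0.06, and none passed. Gphn encodes gephyrin, the scaffold that clusters glycine and GABA-A receptors, and had 221.3, 221.4, 224, 239 and 217 in dehydrated and 244, 209, 236, 209.8 and 216 in control pools. All dehydrated values lay inside the control range, and the log2 difference was 0.01 ± 0.07 (95% interval -0.14 to 0.16, limma adjusted p = 0.955). Nlgn2, the adhesion protein of inhibitory synapses, had 95.2, 88.9, 94.1, 90.4 and 97.2 in dehydrated and 108, 101, 106, 97.7 and 85.7 in control pools. Control replicate 5 was the lowest of all and the other 4 control pools lay above every dehydrated pool. The log2 difference was -0.09 ± 0.09 (limma adjusted p = 0.716), and -0.14 without control replicate 5 (adjusted p = 0.471). Gabarap and Gabarapl1, which act in receptor trafficking and autophagy, differed by 0.06 (95% interval -0.06 to 0.18) and -0.01 (-0.19 to 0.17). Control replicate 5 was the highest array for Gabarapl1, which differed by 0.05 without it (limma adjusted p = 0.780).

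The chloride cotransporter genes were compared both singly and within each array. Slc12a2, the chloride importer, had 510, 456, 476, 462 and 584 in dehydrated and 511, 533, 485, 475 and 442 in control pools, with the groups mixed (log2 0.02 ± 0.08, 95% interval -0.14 to 0.18, limma adjusted p = 0.936). Control replicate 5 was its lowest array, and the log2 difference without it was -0.02 (limma adjusted p = 0.946). Slc12a5, the neuronal chloride exporter, had 1027, 919, 949, 1072 and 1122 in dehydrated and 1085, 1098, 1132, 1076 and 1083 in control pools. Of the dehydrated pools, 4 lay below all control pools and replicate 5 lay among them, and the spread was wider in the dehydrated group (SD 84.1 against 22.2). The log2 difference was -0.11 ± 0.06 (95% interval -0.23 to 0.02, limma adjusted p = 0.459). Slc12a7, a further potassium-chloride exporter gene, differed by 0.12 ± 0.13.

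The difference between the log2 signals of Slc12a2 and Slc12a5 within an array shows whether both differed alike, not which protein is more abundant. It was -1.003, -1.006, -0.99, -1.21 and -0.94 in dehydrated and -1.08, -1.04, -1.22, -1.17 and -1.29 in control pools. Dehydrated pools other than replicate 4 lay above all control pools. The group means differed by 0.13 on the log2 scale (exact two-sided permutation p = 0.0714, n = 5 each, 0.143 after Benjamini-Hochberg adjustment over 2, this difference and that of Gad2 and Slc17a6). Without dehydrated replicate 4 the means differed by 0.17. Since that pool alone overlapped the controls, leaving it out fixes the exact permutation p at the smallest that 4 against 5 pools allow (0.0159), and nothing is read from it. The means differed by 0.16 without control replicate 2, the highest control pool (exact permutation p = 0.0476), and by 0.10 without control replicate 5 (exact permutation p = 0.143). Under quantile normalization the value was 0.15 (exact permutation p = 0.0476, n = 5 each).

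**Figure D4:**
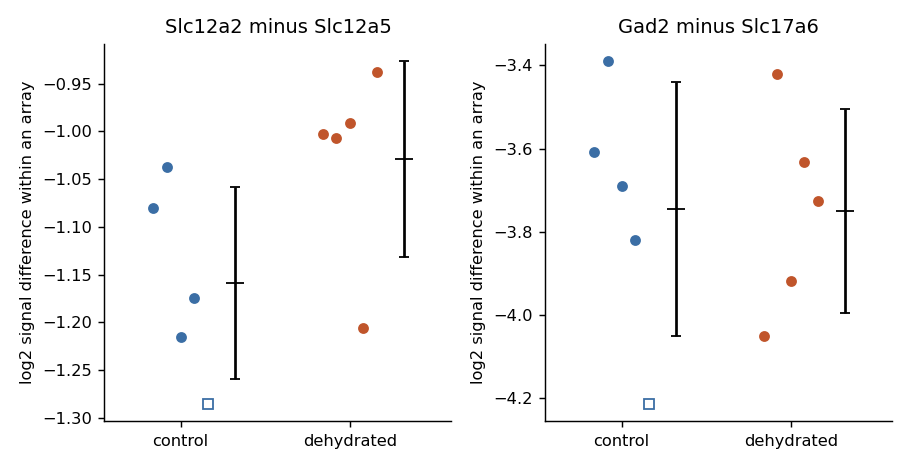
Within-array difference of log2 signals for Slc12a2 minus Slc12a5 (left) and Gad2 minus Slc17a6 (right) in each pool (circles; the open square is control replicate 5), with mean and SD over 5 pools. On the left dehydrated replicate 4, at -1.21, is the dehydrated pool that lies among the controls, and on the right the groups cover the same range.

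Of 94 other genes of inhibitory transmission and chloride handling, 69 were matched on the array and 55 were tested. In limma 0 were higher and 0 lower after adjustment, where 0.58% of all probe sets passed. At an unadjusted p under 0.05 there were 11, of which 3 were higher and 8 lower, beside 12.7% of all probe sets. The median log2 difference of the tested genes was -0.03. The cation-chloride cotransporter gene Slc12a1 lay under the limit of 24.1, with a mean of 18.0, and was not tested. It had 18.4 to 34.0 in dehydrated and 7.4 to 12.5 in control pools. These groups did not overlap, as was so for 3.36% of all probe sets tested. Slc12a1 was singled out after its values were seen. The smallest p was that of Kcnj6, a potassium channel subunit opened through GABA-B and other G protein coupled receptors, with 109.9 ± 7.58 in dehydrated and 136 ± 5.41 in control pools and no overlap (log2 -0.30 ± 0.08, limma adjusted p = 0.107). Next came carbonic anhydrase Car2 (log2 -0.28 ± 0.08, limma adjusted p = 0.128), which passed with array weights (adjusted p = 0.0413). The glycine cleavage gene Amt differed by -0.33 ± 0.11, the sodium-chloride cotransporter gene Slc12a3 by 0.53 ± 0.18 at signals near the limit, Plcl1, which encodes a protein binding Gabarap and GABA-A receptors, by -0.30 ± 0.11, and the amino acid carrier gene Slc38a2 by 0.21 ± 0.08, with limma adjusted p from 0.216 to 0.267. By role, positive and negative differences numbered 4 and 12 in the synapse and receptor assembly genes, 3 and 4 in the GABA-B effectors, 7 and 7 in the uptake and precursor genes, 8 and 8 in the chloride genes and kinases and 1 and 1 in the lineage genes of GABA neurons, beside 9086 and 9543 over all probe sets.

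Markers of other cells differed between the same pools. For the counts that follow, 12.7% of all probe sets tested stood at an unadjusted p under 0.05 in limma, 6.7% higher and 6.01% lower. Of the 11 oligodendrocyte genes tested, all were negative (median log2 -0.28), 9 of them at an unadjusted p under 0.05, and Ermn fell (log2 -0.63 ± 0.12, limma adjusted p = 0.0255). The summed signal of the list was 7817 to 8239 in dehydrated and 8628 to 10145 in control pools, with no member at 0. Car2, Abat and Slc12a2 are also known from glia, and the part of glial RNA in the member values was not tested. Of the 6 tested genes of the lateral and posterior hypothalamus, a region with GABA neurons, 5 were negative (median -0.58), 4 of them at an unadjusted p under 0.05 and 0 after adjustment in limma, with summed signals of 3351 to 6068 in dehydrated and 4157 to 7219 in control pools and no member at 0. In this list the brightest gene, Pmch, differed by 0.02 ± 0.11 and the most negative, Hcrt, by -1.28 ± 0.44 (limma adjusted p = 0.962 and 0.233). The part of this region, or of the other regions listed with the processing, in the lower means of Gad1 and Slc32a1 was not tested. The 10 tested paraventricular identity genes were all positive (median 0.24), 5 of them at an unadjusted p under 0.05, with summed signals of 13532 to 16781 and 10995 to 13437, and Pdyn rose among them (log2 0.81 ± 0.10, limma adjusted p = 5.7e-04). The 10 general neuron genes had 3 positive and 7 negative (median -0.07) and the 12 astrocyte genes 5 and 7 (median -0.06), with none passing in limma (0 each, 2 and 4 at an unadjusted p under 0.05). Of those 4 astrocyte genes, 2 were lower and 2 higher. Gfap, among the lower, had the smallest adjusted p of the astrocyte list (log2 -0.38 ± 0.09, limma adjusted p = 0.0553).

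**Figure D5:**
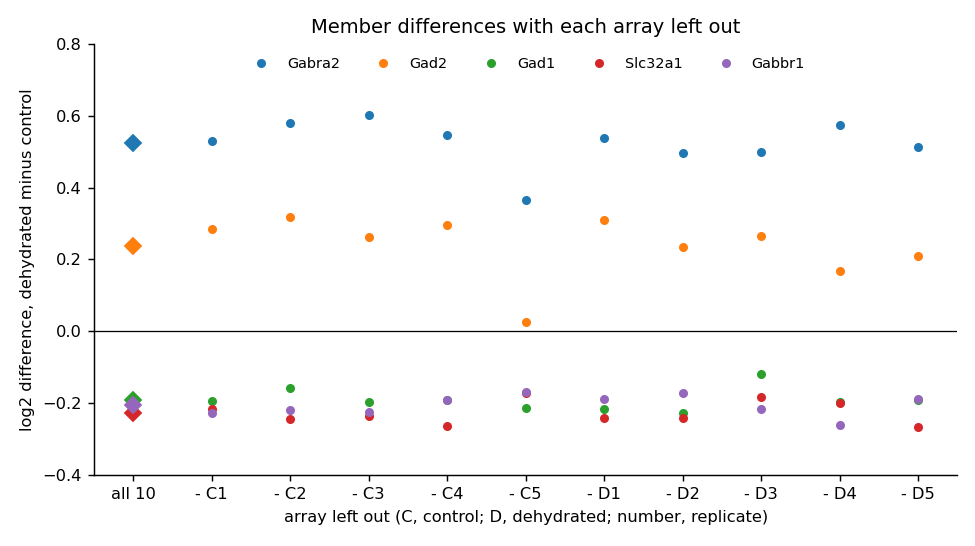
Log2 difference, dehydrated minus control, of 5 members with all 10 arrays (diamonds) and with each array left out in turn (circles). Gabra2 stays between 0.37 and 0.60, Gad1, Slc32a1 and Gabbr1 stay below 0, and Gad2 drops to 0.02 without control replicate 5.

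Leaving out arrays 1 at a time kept the sign of all 4 members with an unadjusted p under 0.05. Gabra2 ran from 0.37 to 0.60 with adjusted p from 0.0670 to 0.238, Gabbr1 from -0.26 to -0.17 (0.121 to 0.358), Slc32a1 from -0.27 to -0.17 (0.212 to 0.421) and Gad1 from -0.23 to -0.12 (0.172 to 0.476). No member was called in any of these fits, in which 46 to 148 probe sets of the whole array were.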

How the data were processed

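Probe set signals of 10 arrays were analysed. The authors deposited linear signal intensities from GCOS 1.2 (submitters' processing notes). How signals and background were computed is not given in the sources used here, nor are detection calls. On each array the mean after trimming 2% at each end was 100.0, so the authors had scaled them, and medians ran from 36.4 to 39.1. Such signals may compress large and dim differences, which was not measured here, and the number of arrays limits the precision. Groups came from the source names, and replicates were numbered in accession order. The array titles of the dehydrated pools and of the other control pools form separate runs of numbers, and that of control replicate 5 lies outside both. What these numbers stand for is not given in the labels.

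Of 31099 probe sets, 57 controls were left out. Of the other 31042, 20826 had 1 symbol in the platform annotation, 436 several and 9780 were not listed there. Symbols of the other gene lists were updated through Entrez identifiers, which matched for 20758. Values were taken as log2(signal + 3.72), the pseudocount being 0.1 of the median of the array medians, so that differences of dim probe sets are understated. Probe sets with a mean over all arrays at or above the 40th percentile were tested with lmFit and eBayes with trend (limma 3.58.1, R 4.3.3). Tests were two-sided, and p-values were adjusted by Benjamini-Hochberg over all 18629. Within-array differences were tested by exact permutation (scipy 1.17.1). The fit was tested on simulated data.

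The members and lists were chosen with earlier results of these data known. The text gives in full the members with an unadjusted p under 0.05 and Gad1, Gad2, Slc32a1, Slc12a2, Slc12a5, Gabbr1, Gabbr2, Gphn and Nlgn2, and, of the other pathway genes, the 6 with the smallest p. Slc6a9 and Slc6a11 were named as well, beside the member transporters, and Slc12a1 was named after its values were seen. The remaining lists gave no call in limma (0 each): microglia (8 tested, median log2 -0.07), vessels and meninges (14, 0.12), choroid plexus and ependyma (5, -0.16), zona incerta and thalamus (5, -0.01), suprachiasmatic nucleus (4, -0.09), arcuate and ventromedial nuclei (4, -0.07), and striatum with bed nucleus (8, -0.04). At an unadjusted p under 0.05 they had 2, 4, 0, 0, 1, 0 and 1, beside 12.7% of all probe sets. Alternatives were other scalings, pseudocounts, filters and variance models, array weights, each array left out, and other probe sets of a gene. Promoter windows and motif shares came from RefSeq tables of build GRCr8.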

Additional observations from a re-analysis of the deposited data

Results flagged for a closer look

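An array lay far from the other 4 of its group in 3 of 76 groups checked, where chance gives about 1 in 20. Control replicate 5 was far below the other controls for Gabrb2, at 536.8 beside a next value of 614.7, and for Gad2, at 29.5 beside 60.7. Dehydrated replicate 4 was far below its group in the within-array difference of Slc12a2 and Slc12a5, at -1.21 beside -1.01.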

How the results depend on the processing

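No paired analysis was possible because the replicate numbers were given in accession order and pair nothing. No member was called under any alternative, with 455 values over 22 members, the lowest adjusted p being 0.0670. Of these values, 429 kept their direction and 26 reversed, over 11 members. Median centring gave Gphn -0.0052, and array weights gave Gabarapl1 0.026 and Slc12a2 -0.00295. The mean of all probe sets gave Gabre 0.28, Gabbr2 0.24, Gabarapl1 0.049 and Nlgn2 0.036. Other probe sets on their own gave Gabre 0.81, Gabbr1 0.0078, 0.15 and 0.0093, Gabbr2 0.55, Glrb 0.42, Gabarapl1 0.11, Nlgn2 0.16 and Abat 0.11. Leaving out 1 array gave ranges of -0.14 to 0.018 for Gabra5, -0.13 to 0.025 for Gabrg1, -0.057 to 0.053 for Gabarapl1, -0.0090 to 0.047 for Gphn and -0.038 to 0.052 for Slc12a2. The count of 108 changed probe sets was 64 without a filter, 45 without the variance trend and 201 with array weights, and 46 to 148 with an array left out. With array weights 1 other pathway gene, Car2, passed. Quantile normalization gave Slc12a2 minus Slc12a5 0.15 and Gad2 minus Slc17a6 0.0058, beside 0.13 and -0.0052, and leaving out 1 array gave 0.10 to 0.17 and -0.12 to 0.083. With Gad1 or Slc32a1 in place of Gad2, added after the data were seen, the latter was -0.43 or -0.47. The cause of these changes was not tested. Without detection calls, members near the limit of 24.1 cannot be told from background.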
